A study of Rattus norvegicus with 8 samples.

Results

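The genes described here make or run the protein synthesis machinery of retinal ganglion cells (RGCs), the neurons whose axons form the optic nerve. They were chosen by symbol only, as genes named for cytosolic ribosomal proteins, translation initiation and elongation factors, tRNA synthetases, nucleolar ribosome biogenesis factors, RNA modifying enzymes, RNA polymerase subunits or WD repeats, leaving out the S6 kinases. The rule found 42 genes among the 1998 genes whose symbol could be paired with one of the 32623 gene IDs of the count files. By role they were 8 cytosolic ribosomal protein genes, 7 ribosome biogenesis genes, 2 RNA polymerase subunit genes, 5 genes of tRNA and rRNA modification, 3 cytosolic and 3 mitochondrial tRNA synthetase genes, 7 genes of initiation and elongation, and 7 WD-repeat genes whose known roles lie elsewhere. The last group does not belong under translation and was kept apart. The values came from Sprague Dawley rats, with 4 libraries of RGCs at embryonic day 21 (E21) and 4 at postnatal day 11 (P11), each library from a litter of its own. The cells of both stages were purified with an anti-macrophage plate followed by an anti-Thy1 plate, and the labels give no treatment or mutation. The stages answer which RNAs of the machinery differ between cells that still extend axons readily and cells that have lost most of that ability.

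A ribosome has a small subunit that reads the mRNA and a large subunit that joins amino acids. Its rRNA is transcribed in the nucleolus by RNA polymerase I and cut, folded and modified there by assembly factors, while ribosomal proteins are made in the cytosol and imported. Initiation factors load the mRNA, tRNA synthetases charge each tRNA with its amino acid, and mitochondria use a ribosome and synthetases of their own. The mTORC1 kinase promotes ribosome production and translation, and mRNAs of ribosomal proteins are known for a tract of pyrimidines at their 5′ end through which that kinase controls their translation.

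Between 13899299 and 20116017 reads per library were counted on genes. Of 14043 genes with enough counts for edgeR's quasi-likelihood test, 8.16% were higher at E21 and 16.5% higher at P11 at a Benjamini-Hochberg adjusted p below 0.01 and a fold above 2, the thresholds for a call below. At that adjusted p and any fold, the shares were 33.8% and 34.6%. Levels are TMM-normalized CPM, that is, counts per library scaled to equal size, given as the mean ± SD of 4 libraries, and are not divided by gene length, so they compare stages and not genes. Summed CPM of 6 vascular and mural markers lay between 4.71 and 7.30 at E21 and between 413 and 806 at P11, with 5 of the 6 called higher at P11. For 5 photoreceptor markers the sums were between 5.52 and 7.10 at E21 and between 22.8 and 36.7 at P11, and 3 were called higher at P11. Sums of 4 bipolar cell markers were between 41.4 and 49.0 CPM at E21 and between 87.3 and 94.5 CPM at P11. Most of these sums was Prkca, called higher at P11 (means of 38.3 CPM at E21 and 87.5 CPM at P11). Grm6 went the other way and passed the adjusted p (5.97 and 3.37 CPM), while Lhx4 and Pcp2 were too low to test. Sums of 4 amacrine cell markers were between 535 and 559 CPM at E21 and between 423 and 441 CPM at P11. They consisted mostly of Pax6 (432 and 305 CPM) and Barhl2 (112 and 111 CPM). The study names Pax6 among the factors behind RGC differentiation, so these sums may not measure amacrine cells alone. Gad1 was called higher at P11 (0.856 and 13.8 CPM) and Prox1 at E21 (5.97 and 2.63 CPM). The 3 markers of astrocytes and Müller glia summed to between 0.669 and 0.861 CPM at E21 and between 1.15 and 2.62 CPM at P11, with S100b called higher at P11. The sum of 3 microglial markers did not exceed 0.952 CPM in any library, and that of 4 neuronal markers lay between 3695 and 3839 CPM at E21 and between 2346 and 2486 CPM at P11, with only Gap43 among them called. The part of these cells in the values below was not tested. In bulk RNA, fewer cells of a type and less RNA per cell cannot be told apart. Within the stages, E21 replicate 1 and P11 replicate 4 stood apart, since pairs that held them differed by a chi-square per degree of freedom of 6.29 to 7.0 and 6.43 to 8.20, against 3.27 to 4.15 and 2.86 to 3.90 for the other pairs.

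Transcripts of the machinery were mostly more abundant at E21, by less than 2-fold outside the ribosomal proteins. Of the 42 genes 41 could be tested, and 4 were called higher at E21, all of them cytosolic ribosomal protein genes, while 0 were called higher at P11. Over all genes tested, 8.16% were called higher at E21 and 16.5% higher at P11, or 24.7% in either direction. The share of the 41 genes called higher at E21 was thus near that of all genes. With no condition on the fold, 26 of the 41 passed the adjusted p as higher at E21, against 33.8% of all genes tested, and 4 as higher at P11, against 34.6%. For 27 genes the lowest E21 library was above the highest P11 library and the reverse held for 4, where the shares among all genes tested were 35.4% and 35.9%. The median log2 fold change (E21 over P11) of the 41 genes was 0.33, with a range from -0.88 to 1.20 and a median of 0.00 over all genes tested. Without the WD-repeat genes of other roles, the median was 0.35 over 34 genes. Without the ribosomal proteins as well, 26 genes remained, with a median of 0.26 and 0 calls, of which 15 passed the adjusted p as higher at E21 and 2 as higher at P11. The summed level of all 42 genes was 3826 ± 103 CPM at E21 and 2784 ± 33.3 CPM at P11. Most of the difference lay in the ribosomal proteins, whose sum went from 1649 ± 90.3 CPM to 797 ± 34.5 CPM.

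**Figure D1:**
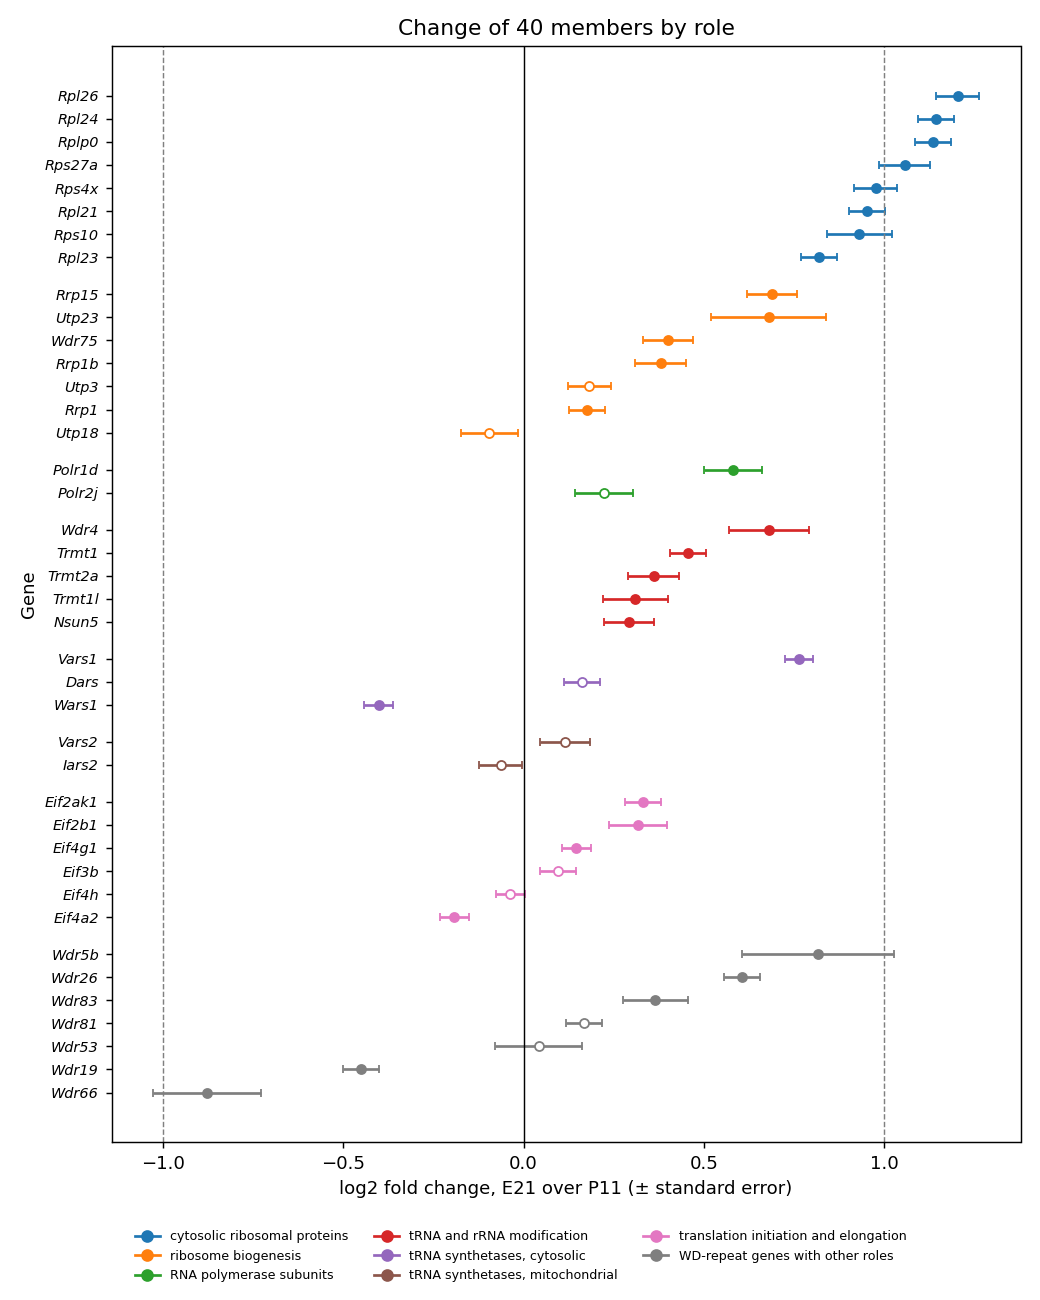
Log2 fold change, E21 over P11, of 40 genes (x axis), with 1 gene a line and colours for the role. Bars are standard errors from edgeR, filled points have an adjusted p below 0.01 and dashed lines mark a fold of 2; the 8 ribosomal protein genes lie between 0.82 and 1.20, and Wdr66 at the bottom lies at -0.88.

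The 8 cytosolic ribosomal protein genes that the rule found changed in the same direction and by similar amounts. Genes of this family whose symbol was not among the 1998 at hand were not examined, so the values do not describe the whole family. All 8 passed the adjusted p as higher at E21, with log2 fold changes around a median of 1.02, so that the P11 level was between 43.4% of the E21 level for Rpl26 and 56.7% for Rpl23. Since the fold threshold runs through the middle of this range, it divided genes with near-equal changes, and the 4 genes called (Rpl26, Rpl24, Rplp0 and Rps27a) differed little from the 4 that were not (Rps4x, Rpl21, Rps10 and Rpl23). As a share of all counted reads, the 8 genes took 0.162% ± 0.00885 at E21 and 0.0811% ± 0.00426 at P11 (SD, n = 4).

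Of the 8 genes found, 5 encode proteins of the large subunit. Rplp0 encodes P0, the base of the stalk that recruits translation factors. Its level was 518, 519, 545 and 547 CPM in the E21 libraries and 229, 237, 239.7 and 264 CPM in the P11 libraries (log2 fold change 1.13, standard error 0.05, edgeR adjusted p = 8.28e-13). The lowest E21 library was far above the highest P11 library. Rpl24, which sits at the interface between the subunits and is the gene of the mouse Belly spot and tail mutation, had 207, 222, 242 and 240.5 CPM at E21 and 103, 101, 98.3 and 111 CPM at P11 (log2 fold change 1.14, standard error 0.05). Its adjusted p was 7.77e-12 (edgeR), and the 8 libraries fell into separate stages with a wide gap.

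Rpl26, a protein near the exit of the peptide tunnel, had the highest fold of the 41 genes tested. It was at 50.4, 51.4, 57.0 and 56.8 CPM at E21 and at 23.1, 23.9, 22.0 and 24.5 CPM at P11, which rests on 344 to 1086 counts per library (log2 fold change 1.20, standard error 0.06, edgeR adjusted p = 1.76e-11). Rpl21 was at 224, 229.7, 253 and 238 CPM at E21 and at 121, 123, 116 and 128 CPM at P11 (log2 fold change 0.95, standard error 0.05, edgeR adjusted p = 8.80e-12). Rpl23 had the lowest fold of the 8, with 99.1, 112, 113 and 110.3 CPM at E21 and 60.1, 65.9, 57.3 and 62.7 CPM at P11 (log2 fold change 0.82, standard error 0.05, edgeR adjusted p = 4.37e-10). In each of the 3 genes the stages did not overlap. The ratio of Rpl26 to Rpl23 within a library, a comparison of the extremes and therefore only a description, was between 0.461 and 0.515 at E21 and between 0.362 and 0.392 at P11.

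The remaining 3 of the 8 genes found encode proteins of the small subunit. Rps27a encodes a ribosomal protein fused to ubiquitin, from which it is cleaved. Its levels were 207, 234, 254 and 267 CPM at E21 and 124, 115, 109 and 114 CPM at P11 (log2 fold change 1.06, standard error 0.07, edgeR adjusted p = 2.59e-08). Rps4x, an X-linked gene, had 163, 170.3, 177 and 187 CPM at E21 against 85.7, 82.4, 84.7 and 101 CPM at P11 (log2 fold change 0.98, standard error 0.06, edgeR adjusted p = 1.37e-09). Rps10, a protein in the head of the small subunit, was at 68.2, 77.5, 83.7 and 73.1 CPM at E21 and at 48.0, 35.7, 36.6 and 39.1 CPM at P11 (log2 fold change 0.93, standard error 0.09, edgeR adjusted p = 1.24e-06). Rps10 had the largest standard error of the 8 genes, and P11 replicate 1 lay above the other P11 libraries, though below every E21 library.

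**Figure D2:**
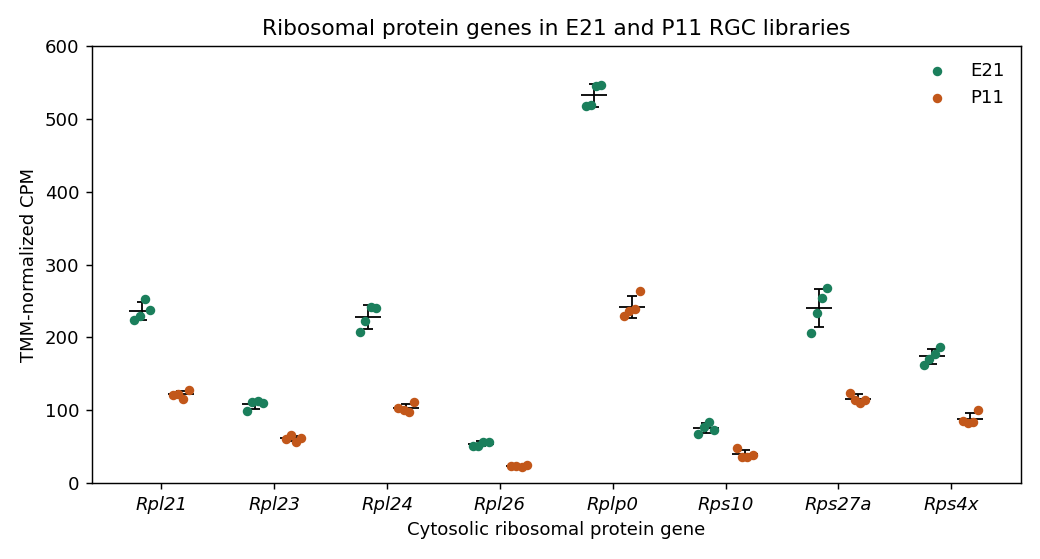
TMM-normalized CPM (y axis, from 0) of the 8 ribosomal protein genes (x axis), with 1 point a library and a bar for the mean ± SD of 4 libraries. In each gene all E21 points (green) lie above all P11 points (orange), from 518 to 547 against 229 to 264 CPM in Rplp0; heights are not divided by length and compare stages, not genes.

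The order of the libraries within a stage was partly shared by the ribosomal protein genes. E21 replicate 1 was the lowest E21 library for 8 of the 8 genes, at a mean of 92.2% of the E21 average, and P11 replicate 4 was the highest P11 library for 5 of the 8, at a mean of 104.9% of the P11 average. These are the libraries that stood apart over all genes, and each deviated on average towards the other stage. P11 replicate 4 was below the P11 average for Rps10 (98.2%) and Rps27a (98.8%). Leaving out both gave a median log2 fold change of 1.09 and 5 calls, the fifth being Rps4x at 1.07 (edgeR adjusted p = 5.02e-13). Because both libraries deviated on average towards the other stage in these genes, leaving them out could be expected to widen the difference and is no test of it.

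**Figure D3:**
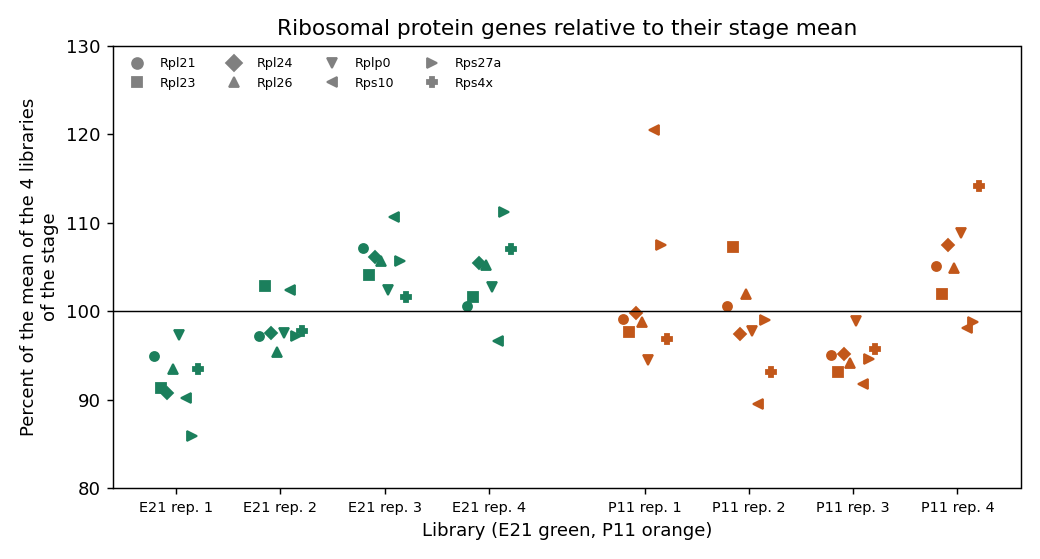
Level of each ribosomal protein gene in each library (x axis) as a percentage of the mean of the 4 libraries of its stage (y axis), with 1 marker shape a gene. All 8 markers of E21 replicate 1 lie below 100, between 85.9 and 97.3, and those of P11 replicate 4 lie between 98.2 and 114.

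Ribosomal protein genes have many processed copies in the genome, and reads that align to several places were set aside by the counting, so their levels are likely undercounted and uncertain. RefSeq names 105 pseudogenes after these 8 genes, from 6 each for Rpl21 and Rpl23 to 29 for Rps27a. The share of alignments set aside as not unique was 42.2%, 40.3%, 41.1% and 37.4% in the E21 libraries and 36.2%, 34.7%, 31.7% and 36.3% in the P11 libraries. It was higher in all E21 libraries (exact permutation test, two-sided, p = 0.0286, the smallest p that 4 libraries against 4 allow). Its part in the values of the ribosomal proteins was not tested. Reads of Rpl21 may also include those of small nucleolar RNAs that lie within it by RefSeq names.

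The start of these genes is shown because the pyrimidine tract at the 5′ end is the sequence feature by which ribosomal protein mRNAs are known. The table of promoters from RefSeq (build GRCr8) held 38 of the 42 genes, including all 8 ribosomal proteins. Each line gives 15 bases before and 15 bases from the annotated start on, 5′ to 3′ on the strand of the gene, with the longest run of C or T in capitals.
Rps10 (chr20:5700730-5700759, minus strand): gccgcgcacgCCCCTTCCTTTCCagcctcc
Rpl23 (chr10:83272170-83272199, minus strand): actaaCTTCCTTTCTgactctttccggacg
Rpl21 (chr12:13386139-13386168, minus strand): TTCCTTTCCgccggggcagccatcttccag
Rplp0 (chr12:46718376-46718405, minus strand): gaccgcaccgcaCTTCTCTCgccaggcgtc
Rps27a (chr14:107488927-107488956, minus strand): cctaaagggcggTTCCTTCgacccggagac
Rpl24 (chr11:58128391-58128420, minus strand): gaatttagggaggagaTTCTCTaccctata
Rps4x (chrX:71342907-71342936, minus strand): tccagcgcgcgcagCCTCCgaccctaattt
Rpl26 (chr10:54109677-54109706, plus strand): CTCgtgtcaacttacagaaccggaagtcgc

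The runs were 13, 10, 9, 8, 7, 6, 5 and 3 bases long in that order, with a median of 7.5. A run of 8 or more was found in 4 of the 8 ribosomal protein genes, in 4 of the 30 other genes with a promoter sequence and in 11% of 19005 protein-coding genes, where the median run was 4. The runs of Rps10 and Rplp0 spanned the annotated start. Those of Rpl21 and Rpl23 lay wholly before it and so outside the mRNA as annotated. Only the longest run of each gene was counted, however. The Rpl23 window also holds ctctttcc, a run of 8 shortly after the start and so within the mRNA as annotated. The runs of Rpl21 and Rpl26 began at the edge of the window and may be longer than counted. The order of the runs was not that of the folds, since Rpl26, with the highest fold, had the shortest run and Rps10 and Rpl23, with the longest, had the lowest folds of the 8. A gene whose annotated start is not the base where its mRNA begins would not show its tract in this window, which limits the comparison.

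Motifs of factors were searched on both strands in 300 bases of each promoter, from 250 before the start to 50 from the start on. The CREB site was included because the study is about that factor. The full CREB site TGACGTCA was found in Rpl26, Trmt2a and Wdr4, which is 3 of 38 against 2.22% of protein-coding promoters, and its core TGACG, which the full site contains, in 16 of 38 (42.1%) against 24.2%. The E-box CACGTG, bound by MYC, was found in 0 of the 8 ribosomal protein genes and in 12 of the 30 others, or 40%, against 7.27%. An ETS site, CCGGAAG, stood in 3 of the 8 and 10 of the 30, against 11.2%. The YY1 site AAGATGGCG was found in 0 of the 38, against 2.29%. These are matches of letters and say nothing of binding. The 12 genes with an E-box had log2 fold changes from -0.45 (Wdr19) to 0.76 (Vars1), negative in Wdr19, Utp18 and Eif4h. The 3 CREB windows and the windows of the 3 genes with an E-box that had the largest log2 fold changes follow, with the motif in capitals. These E-box windows thus come from the upper end of that range only.
Rpl26 CREB site (chr10:54109551-54109580, plus strand): cctccaagagaTGACGTCAgaaccctcgca
Trmt2a CREB site (chr11:96246628-96246657, minus strand): gcgcgtggcggTGACGTCAtcggaagccaa
Wdr4 CREB site (chr20:9604732-9604761, minus strand): gcggtgccgggTGACGTCActggccggcgc
Wdr4 E-box (chr20:9604690-9604719, minus strand): cgctgagcgtcgCACGTGtgcggaggcggc
Vars1 E-box (chr20:3824973-3825002, minus strand): cacaaagggggaCACGTGggtgccgctggc
Rrp15 E-box (chr13:100830769-100830798, minus strand): ccgttcaggactCACGTGtgaaccccggag

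Ribosome biogenesis genes were higher at E21 by smaller steps. Of 7 genes, 5 passed the adjusted p as higher at E21 and 0 as higher at P11, with a median log2 fold change of 0.38, and their summed level was 192 ± 3.19 CPM at E21 and 159 ± 5.0 CPM at P11. Rrp15, which acts in the maturation of large subunit rRNA, was at 19.2, 20.4, 21.6 and 19.3 CPM at E21 and at 12.6, 12.6, 12.2 and 12.6 CPM at P11 (log2 fold change 0.69, standard error 0.07, edgeR adjusted p = 1.98e-07). Utp23, a factor of early small subunit assembly, was at 4.62, 6.49, 5.98 and 6.51 CPM at E21 and 3.16, 3.55, 4.38 and 3.65 CPM at P11 (log2 fold change 0.68, standard error 0.16, edgeR adjusted p = 8.24e-04). The stages were separate in both genes, but Utp23 had only 47 to 128 counts per library and the gap between its lowest E21 and highest P11 library was small.

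Wdr75, a member of the small subunit processome that also supports transcription by RNA polymerase I, went from 25.5 ± 1.47 CPM to 19.3 ± 1.38 CPM (log2 fold change 0.40, standard error 0.07, edgeR adjusted p = 7.83e-05). Both nucleolar paralogs Rrp1b and Rrp1 passed. Rrp1b went from 40.3 ± 1.92 CPM to 30.9 ± 3.36 CPM (log2 fold change 0.38, edgeR adjusted p = 1.53e-04) and Rrp1 from 52.6 ± 1.77 CPM to 46.6 ± 0.977 CPM (log2 fold change 0.18, edgeR adjusted p = 0.0036). The processome gene Utp3 (log2 fold change 0.18, standard error 0.06, edgeR adjusted p = 0.0155) missed the threshold, though its E21 libraries lay above its P11 libraries. Utp18, of the same complex, was at 18.7 ± 0.787 CPM and 20 ± 1.82 CPM, with overlapping stages (log2 fold change -0.09, standard error 0.08, edgeR adjusted p = 0.2711).

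Of the polymerase subunits, Polr1d, which is shared by RNA polymerases I and III and so serves both rRNA and tRNA synthesis, was at 25.4, 28.2, 27.3 and 29.7 CPM at E21 and at 16.9, 20.9, 17.6 and 18.4 CPM at P11 (log2 fold change 0.58, standard error 0.08, edgeR adjusted p = 2.84e-06). The stages of Polr1d were separate. Polr2j, a subunit of RNA polymerase II, the enzyme of mRNA synthesis, was at 25.5 ± 2.83 CPM and 21.9 ± 1.32 CPM, with overlapping libraries (log2 fold change 0.22, standard error 0.08, edgeR adjusted p = 0.0195).

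All 5 genes of tRNA and rRNA modification passed the adjusted p as higher at E21, with a median log2 fold change of 0.36 and a sum of 157 ± 6.94 CPM against 118 ± 6.12 CPM. Wdr4, the partner of the enzyme that adds 7-methylguanosine to tRNAs, changed most, with 13.3, 14.3, 13.0 and 15.2 CPM at E21 and 7.53, 8.82, 8.06 and 10.3 CPM at P11 (log2 fold change 0.68, standard error 0.11, edgeR adjusted p = 1.85e-05). Trmt1, which dimethylates a guanosine of tRNAs, went from 71.1 ± 3.29 CPM to 51.9 ± 3.18 CPM (log2 fold change 0.46, standard error 0.05, edgeR adjusted p = 7.60e-07). In both genes every E21 library lay above every P11 library.

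Trmt2a, which methylates a uridine of tRNAs, went from 22.8 ± 0.701 CPM to 17.7 ± 1.43 CPM (log2 fold change 0.36, edgeR adjusted p = 2.34e-04). Nsun5, which methylates a cytosine of the large rRNA, went from 24.6 ± 1.54 CPM to 20.1 ± 0.609 CPM (log2 fold change 0.29, edgeR adjusted p = 7.85e-04). Trmt1l, the paralog of Trmt1, passed at 24.6 ± 2.02 CPM against 19.9 ± 2.43 CPM (log2 fold change 0.31, edgeR adjusted p = 0.0040) although 1 P11 library lay among the E21 libraries.

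The tRNA synthetase genes did not move one way. Valyl-tRNA synthetase, Vars1, was at 205, 189.7, 199 and 199.5 CPM at E21 and at 118, 115, 121 and 113 CPM at P11, the largest change among the genes tested outside the ribosomal proteins and the WD-repeat genes of other roles (log2 fold change 0.76, standard error 0.04, edgeR adjusted p = 2.48e-11). Tryptophanyl-tRNA synthetase, Wars1, went the other way, with 119, 121, 126 and 120.4 CPM at E21 and 156, 162, 163 and 161 CPM at P11 (log2 fold change -0.40, standard error 0.04, edgeR adjusted p = 5.69e-08). Neither gene had overlapping stages, and P11 libraries held 58.9% of the E21 level of Vars1 but 132% of that of Wars1. Aspartyl-tRNA synthetase, Dars, was at 56.0 ± 2.31 CPM and 50 ± 2.79 CPM and missed the threshold (log2 fold change 0.16, standard error 0.05, edgeR adjusted p = 0.0111).

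Of the mitochondrial synthetase genes, the valyl gene Vars2 was at 46.5 ± 4.78 CPM and 42.9 ± 1.13 CPM (log2 fold change 0.11, standard error 0.07, edgeR adjusted p = 0.1323). The isoleucyl gene Iars2 was at 57.3 ± 1.99 CPM and 59.9 ± 4.90 CPM (log2 fold change -0.06, standard error 0.06, edgeR adjusted p = 0.3329). Neither passed, and in both the stages overlapped. The valyl-tRNA synthetases of the cytosol and of mitochondria could be compared within each library, where the length of the genes cancels between stages. The ratio of Vars1 to Vars2 counts was 4.20, 4.71, 3.87 and 4.39 at E21 and 2.81, 2.69, 2.85 and 2.55 at P11, higher in all E21 libraries. This log2 ratio differed by 0.65 (exact permutation test, two-sided, p = 0.0286, the smallest possible, and 0.0857 after Benjamini-Hochberg adjustment over 3 pairs of paralogs), so it did not pass the correction. For Trmt1 and Trmt1l, and for Rrp1 and Rrp1b, the log2 ratio differed by 0.14 and -0.21, with overlapping stages (exact permutation tests, adjusted p = 0.0857 and 0.1143).

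Initiation and elongation factor genes stayed close to their E21 level. Of 6 tested, 3 passed the adjusted p as higher at E21 and 1 as higher at P11, with a median log2 fold change of 0.12, and the sum of the group was 1031 ± 19.0 CPM at E21 and 1021 ± 16.3 CPM at P11. Eif2ak1, the heme-regulated kinase that inhibits initiation by phosphorylating eIF2, was at 54.2, 56.0, 55.9 and 56.2 CPM at E21 and 43.1, 45.1, 45.1 and 43.5 CPM at P11 (log2 fold change 0.33, standard error 0.05, edgeR adjusted p = 6.58e-06). Eif2b1, a subunit of the exchange factor that recharges eIF2 with GTP, went from 25.0 ± 2.48 CPM to 20 ± 0.597 CPM (log2 fold change 0.32, standard error 0.08, edgeR adjusted p = 0.0011). The libraries of the stages were separate in both genes.

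The subunits of the cap-binding complex eIF4F and its helper split. Eif4g1, its scaffold, went from 308 ± 15.7 CPM to 279 ± 3.56 CPM (log2 fold change 0.15, standard error 0.04, edgeR adjusted p = 0.0042). Eif4a2, an RNA helicase, rose from 232, 237, 247 and 249.9 CPM at E21 to 290.0, 276, 273 and 265 CPM at P11 (log2 fold change -0.19, standard error 0.04, edgeR adjusted p = 4.27e-04). Every P11 library of Eif4a2 lay above every E21 library, by a narrow margin. Eif4h, which stimulates the helicase, was at 297 ± 6.31 CPM and 304 ± 6.76 CPM (log2 fold change -0.04, standard error 0.04, edgeR adjusted p = 0.3657), and Eif3b, a subunit of the factor that binds the small subunit, at 104 ± 5.94 CPM and 96.9 ± 3.66 CPM (log2 fold change 0.09, standard error 0.05, edgeR adjusted p = 0.0849). Neither passed, and their stages overlapped.

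The only gene of the 42 too low to test was Eef2kmt, a lysine methyltransferase of elongation factor eEF2, with 0, 1, 2 and 0 counts at E21 and 6, 5, 4 and 6 counts at P11. Its summed counts, 3 against 21, gave 7.16 times as much at P11 after scaling (95% exact interval 2.14 to 37.5, counting error only). Each E21 library was below a floor of 3 counts, which corresponds to 0.152 to 0.219 CPM, and with no low-count filter the gene was called higher at P11.

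**Figure D4:**
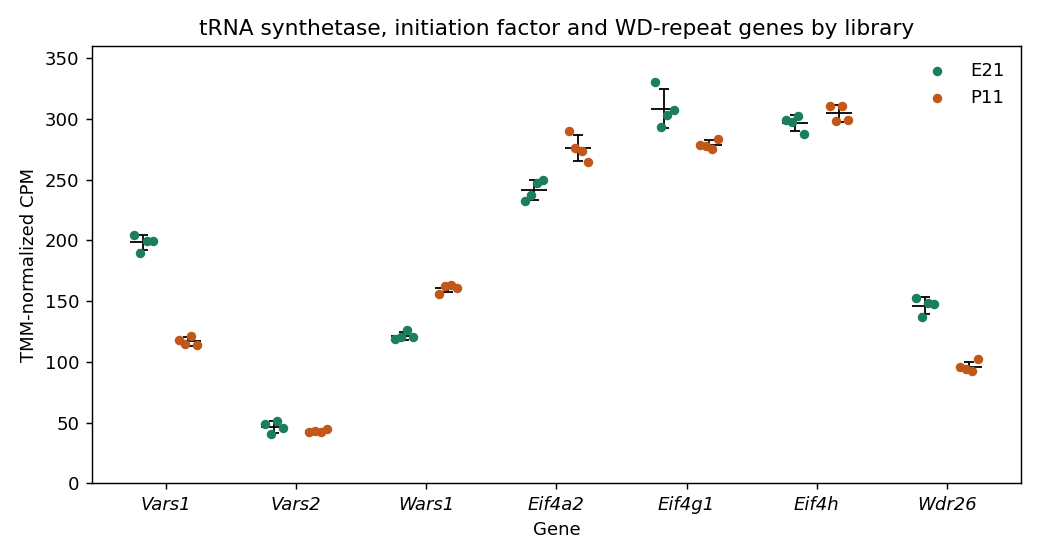
TMM-normalized CPM (y axis, from 0) of 3 tRNA synthetase genes, 3 genes of the eIF4 group and Wdr26 (x axis), with 1 point a library, E21 in green, P11 in orange and bars for the mean ± SD of 4 libraries. Vars1 falls from 198 to 117 CPM while Wars1 rises from 122 to 161 CPM; heights are not divided by length and compare stages, not genes.

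The 7 WD-repeat genes with other roles share only a protein fold, and 3 passed the adjusted p as higher at E21 and 2 as higher at P11 (median log2 fold change 0.17), near the 33.8% and 34.6% of all genes tested. Both that were higher at P11 are known as genes of cilia. Wdr66, of motile cilia and flagella, was at 4.35, 4.26, 3.88 and 4.39 CPM at E21 and at 6.99, 7.28, 10 and 6.71 CPM at P11 (log2 fold change -0.88, standard error 0.15, edgeR adjusted p = 4.48e-05), and Wdr19, of intraflagellar transport, went from 34.6 ± 1.06 CPM to 47.3 ± 1.11 CPM (log2 fold change -0.45, standard error 0.05, edgeR adjusted p = 4.71e-07). The stages were separate in both, and Wdr66 was highest in P11 replicate 3.

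Wdr26, a subunit of a ubiquitin ligase, was at 153, 137, 148 and 147 CPM at E21 and at 95.6, 94.0, 92.4 and 102 CPM at P11 (log2 fold change 0.61, standard error 0.05, edgeR adjusted p = 2.85e-09). Wdr5b, a paralog of the chromatin protein Wdr5, went from 3.82 ± 0.407 CPM to 2.15 ± 0.614 CPM on 19 to 80 counts per library (log2 fold change 0.82, standard error 0.21, edgeR adjusted p = 0.0018). Wdr83, a scaffold of MAP kinases, went from 16.2 ± 1.69 CPM to 12.6 ± 0.716 CPM (log2 fold change 0.36, standard error 0.09, edgeR adjusted p = 0.0015). All 3 had separate stages. Wdr81, an endosomal protein, missed the threshold at a log2 fold change of 0.17 (standard error 0.05, edgeR adjusted p = 0.0112), and Wdr53 was at 6.37 ± 0.503 CPM and 6.22 ± 0.486 CPM (log2 fold change 0.04, standard error 0.12, edgeR adjusted p = 0.7656). Library size scaling turned the sign of Wdr53, to -0.01.

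Some of the smaller changes concern genes that overlap a neighbour by RefSeq names, namely Wdr83 with Dhps, Eif2ak1 with Aimp2 and Ankrd61, Eif2b1 with Gtf2h3, Nsun5 with Pom121, Polr2j with Lrwd1, Trmt1 with Nacc1, Utp18 with Mbtd1 and Eef2kmt with Alg1. Eif4a2 and Eif4g1 host small nucleolar RNAs. The strand setting of the counting is not given in the sources used here, so reads of such pairs may not be told apart.

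Further genes of the same pathways that the symbol rule does not take were read from 6 lists with 72 genes. Of the 71 tested, 0 were called higher at E21 in edgeR's test, against 8.16% of all genes tested, and 2 higher at P11, against 16.5%. At any fold, 20 passed the adjusted p as higher at E21 and 15 as higher at P11, with a median log2 fold change of 0.07. Both counts are lower shares than the 33.8% and 34.6% of all genes tested at that adjusted p, beside which the counts per list below should be read. In ribosome biogenesis 8 of 21 were higher at E21 and 2 at P11 (median 0.22), and in polymerase I and III transcription 3 of 5 and 0 (median 0.30). Translation factors divided into 4 and 4 of 13 (median 0.06), and tRNA charging and processing into 3 and 2 of 11 (median 0.08). Mitochondrial translation had 1 gene higher at E21 and 4 at P11 of 16 tested (median -0.02), and of 5 genes of mTORC1 and its S6 kinase 1 was higher at E21 and 3 at P11 (median -0.26).

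Both genes called were higher at P11. Deptor, an inhibitor of mTOR, was at 4.22, 5.17, 4.20 and 4.53 CPM at E21 and at 13.4, 13.4, 12.2 and 12.7 CPM at P11 (log2 fold change -1.51, standard error 0.11, edgeR adjusted p = 1.35e-09). Pop5, a subunit of RNase P, which trims the 5′ end of tRNAs, and of RNase MRP, which cuts rRNA precursors, was at 7.16, 7.50, 8.03 and 7.53 CPM at E21 and at 16.3, 14.7, 15.5 and 16.2 CPM at P11 (log2 fold change -1.05, standard error 0.09, edgeR adjusted p = 9.91e-09). Every P11 library of both genes was above every E21 library.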

How the data were processed

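RNA of immunopanned rat RGCs was depleted of ribosomal RNA and sequenced in 4 E21 and 4 P11 libraries. Per the labels and the methods, reads went through Cutadapt 1.16 and PRINSEQ, STAR 2.5.3a placed them on Rnor_6.0 and HTSeq 0.6.1 gave the raw counts that the authors deposited, by Ensembl ID. The annotation release and strand setting are not given in the sources used here. Symbols came from a supplementary gene table, of which 1998 genes were at hand, and promoters and gene overlaps from RefSeq (GRCr8), matched by symbol; none of its coordinates was joined to the counts.

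The counts were tested with edgeR 4.0.16 in R 4.3.3 (filterByExpr, TMM, robust quasi-likelihood test, Benjamini-Hochberg adjustment over 14043 genes). The standard error of a change is its absolute value over the root of the F statistic. Calls used the study's thresholds, an adjusted p of 0.01 and a fold of 2. Exact permutation tests (scipy 1.17.1) are two-sided, and intervals cover counting error only. In simulated data with 200 changed genes among 14043, edgeR called 199 and DESeq2 1.42.0 called 200. The simulated log2 fold changes were 2 in either direction, in genes above 2 CPM. They were larger than the change of any gene of the rule that was tested. The simulation therefore does not show how often changes near the threshold are called. Libraries of a stage differed by a chi-square per degree of freedom of 2.86 or more, so none appeared to be a repeat of another. Each counted as a replicate because the methods name independent litters, which that measure cannot show.

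The genes and lists were chosen with earlier results of these data known. Values of 1 gene of the rule, which stays in the counts and medians, are not reported here. The naming rule took ribosomal proteins by library, in each role genes with an adjusted p below 0.01 or among the 2 largest changes, and of the other lists those called; values of the remaining genes of the rule were added after they were seen. Ratios of paralogs and the windows printed were chosen after values were seen. Alternatives were DESeq2, other scalings and filters, glmTreat against the fold threshold, an adjusted p of 0.05, a replicate block and each library left out, and, added after seeing the data, E21 replicate 1 and P11 replicate 4 left out together.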

Additional observations from a re-analysis of the deposited data

Results flagged for a closer look

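In 2 of 80 stage groups, 1 library lay far from the other 3, and chance alone flags about 1 group in 20. Rrp15 was at 12.2 CPM in P11 replicate 3, below 12.6 CPM in each of the other P11 libraries, a gap that is small beside the difference between the stages. Eif2ak1 was at 54.2 CPM in E21 replicate 1, under 55.9 to 56.2 CPM in the rest of its stage.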

How the results depend on the processing

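The direction held for 40 of the 41 genes under every alternative; Wdr53 reversed to -0.01 with library size scaling, with upper-quartile scaling and without P11 replicate 3. The 8 ribosomal protein genes kept a positive change and an adjusted p below 0.01 in each of 136 values from the alternatives other than glmTreat. Eif4g1, Rrp1, Trmt1l and Wdr83, which passed in the main fit, did not stay below 0.01 under all of those alternatives. Their highest adjusted p over these edgeR and DESeq2 fits was 0.0536, 0.0347, 0.0240 and 0.0101, in that order. The counts of genes that passed the adjusted p at any fold therefore depend on the setting. Tested against the fold threshold itself (edgeR glmTreat), 668 of all genes, 2 members (Rpl26 and Rplp0) and 0 of the other translation genes were called higher at E21, and 1 of the other translation genes at P11; Rpl24 and Rps27a lost their calls (adjusted p = 0.0119 and 0.3786). Rps10 was called without P11 replicate 1 (1.03), and Rps4x without E21 replicate 1 (1.01), without P11 replicate 4 (1.04) and without both (1.07). With at least 10 counts in every library, 1523 of all genes were called higher at P11, since that filter removes genes low at E21, and with no filter 1 member (Eef2kmt) was.

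The median log2 fold change of all members was 0.28 with library size scaling, 0.28 with upper-quartile scaling and 0.29 with at least 10 counts in every library. In that order it was 0.07, 0.07 and 0.08 for initiation and elongation, 0.11, 0.11 and 0.13 for cytosolic synthetases and 0.11, 0.12 and 0.13 for the WD-repeat genes of other roles, and library size scaling gave 0.32 for ribosome biogenesis. These scalings moved the median of all genes by at most 0.054. When libraries were left out singly, the medians ranged from 0.31 to 0.41 for ribosome biogenesis, 0.13 to 0.20 for cytosolic synthetases and 0.13 to 0.19 for the WD-repeat genes. Without E21 replicate 1 and P11 replicate 4 together, the median was 1.09 for ribosomal proteins, 0.09 for initiation and elongation and 0.23 for cytosolic synthetases. The cause was not tested where none is given.

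The methods name no pairing of the samples by replicate number. Deviations of same-numbered libraries correlated at -0.023, 0.090, -0.032 and 0.078 over genes, and those of other pairs between -0.103 and 0.071. The highest values were of same-numbered pairs, but all were weak, so they cannot decide whether the numbers pair the samples. With the replicate number as a block, 4 members were called higher at E21 and 0 higher at P11, 1147 and 2316 of all genes were called, and no member changed its call.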
